A study of Arabidopsis thaliana with 6 samples.

Results

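The genes described here are the nuclear genes of Rubisco, its activase, the Calvin cycle, the small regulator CP12 and photorespiration. They were chosen by function, as 36 listed loci of the 33617 in the deposited gene table. The rule did not use their measured values, but earlier results of these data were known when the genes were chosen. Messenger RNA had been sequenced from whole Arabidopsis thaliana seedlings, in 3 libraries of each of 2 genotypes. The first was cog1-2D, a mutant line obtained by activation tagging, in which an inserted enhancer is meant to raise COG1, the gene of a Dof-type transcription factor. The second was the wild type Col-0, labelled wt and without a mutation. All seedlings were untreated and 7 days old, kept at 23 °C under long days on MS medium. The mutant was 1 line, and nothing in the labels tells whether replicates 0, 1 and 2 of a genotype were separate cultures. The p-values therefore measure only the spread between these libraries. COG1 itself lies on the minus strand and had 0 to 3 fragments in each library, so the genotype could not be checked from it.

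In the Calvin cycle, Rubisco fixes CO2 onto ribulose bisphosphate, the product is reduced to triose phosphate, and most of the triose phosphate is used to rebuild the acceptor. Rubisco also takes up oxygen, and photorespiration returns the phosphoglycolate formed in this way to the cycle by steps in the chloroplast, the peroxisome and the mitochondrion, with release of CO2 and ammonia. In green seedlings both pathways depend on enzymes of the chloroplast that are encoded in the nucleus, and many of them are among the most abundant transcripts of the leaf.

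Gene strand set which of these genes could be measured. Of the 36 genes, 18 lie on the plus strand and 18 on the minus strand of the reference, and only those on the plus strand had an ordinary number of fragments. The median over the 6 libraries together was 109014.5 fragments for the plus-strand genes and 234 for the minus-strand genes. The same split ran through the whole table, with a median of 985 fragments for 13777 nuclear protein-coding genes of the plus strand and 1 fragment for 13666 of the minus strand. The strand setting of the counting is not given in the sources used here.

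The plus-strand genes were PGK2 (AT1G56190), GAPA1 (AT3G26650), GAPB (AT1G42970), FBPase (AT3G54050), SBPASE (AT3G55800), TKL1 (AT3G60750), TKL2 (AT2G45290), RPI3 (AT3G04790), PRK (AT1G32060), CP12-1 (AT2G47400), CP12-2 (AT3G62410), CP12-3 (AT1G76560), GOX1 (AT3G14420), GOX2 (AT3G14415), GDCH1 (AT2G35370), GLDT (AT1G11860), HPR1 (AT1G68010) and GLYK (AT1G80380). They ran from 1327 fragments for CP12-3 to 354516 for GAPA1. The minus-strand genes were RBCS1A (AT1G67090), RBCS1B (AT5G38430), RBCS2B (AT5G38420), RBCS3B (AT5G38410), RCA (AT2G39730), PGK1 (AT3G12780), GAPA2 (AT1G12900), TPI (AT2G21170), FBA1 (AT2G21330), FBA2 (AT4G38970), FBA3 (AT2G01140), RPE (AT5G61410), PGLP1B (AT5G36790), GGT1 (AT1G23310), AGT1 (AT2G13360), GLDP1 (AT4G33010), GLDP2 (AT2G26080) and SHM1 (AT4G37930). They ran from 2 fragments for PGLP1B to 2532 for RBCS1A. The low numbers of the minus-strand genes are called residual fragments here and were not taken as a measure of their expression.

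**Figure D1:**
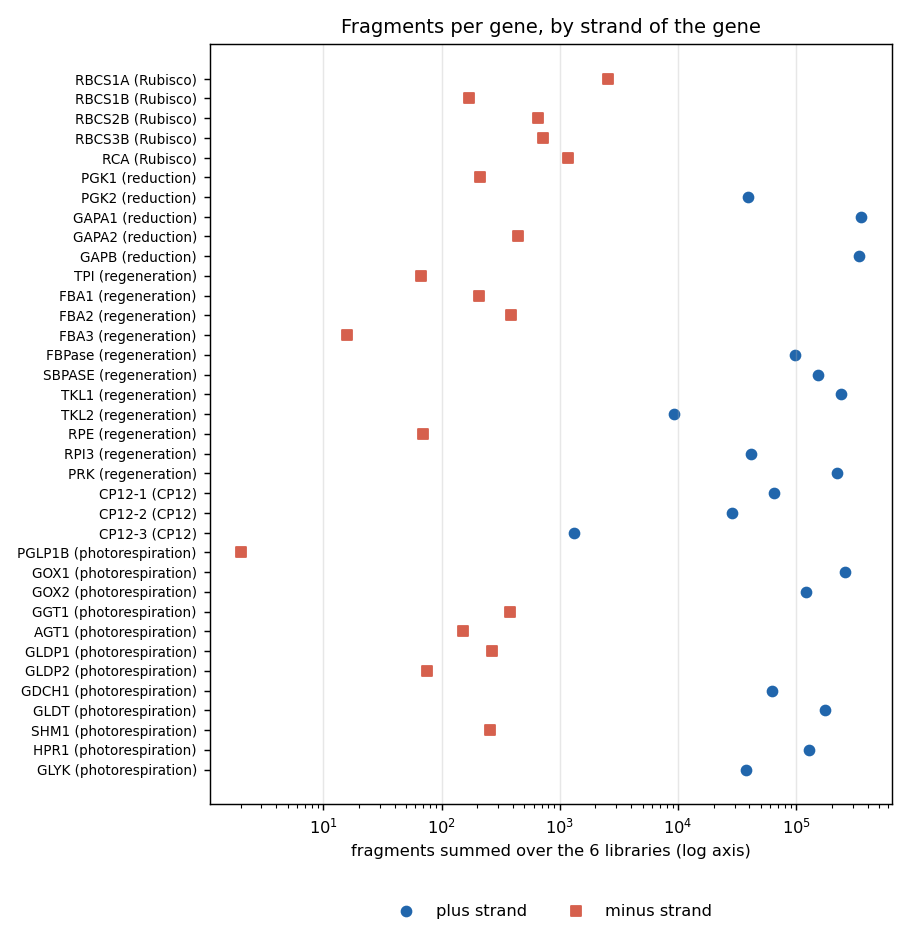
Fragments summed over the 6 libraries for each of the 36 genes, on a log axis, with plus-strand and minus-strand genes in different colours. The plus-strand genes lie between 1327 and 354516 fragments and the minus-strand genes between 2 and 2532.

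The libraries held 10575945 to 11202122 fragments assigned to genes. Wild type replicate 1 stood apart in its residual reads: minus-strand genes took 0.0301% of its nuclear protein-coding fragments, against 0.139% to 0.169% in the other 5 libraries. The 18 minus-strand genes together had 297 fragments in that library and 1280 to 1692 in the others. For 16 of the 18 it held the lowest number of fragments. Wild type replicate 0 was the lowest library for 13 of the 18 plus-strand genes in CPM, counts scaled to a common library size.

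Among the 18 plus-strand genes, 7 rose in cog1-2D, 2 fell and 9 did not pass the test (edgeR's quasi-likelihood test, Benjamini-Hochberg adjusted p under 0.05 over all 10347 genes tested). The 7 that rose were GDCH1, TKL2, CP12-2, GAPB, GOX1, RPI3 and GOX2, by 15.0% to 32.1%. The 2 that fell were SBPASE, by 15.9%, and GLDT, by 13.7%. The fall of GLDT was present in fragments and not in the deposited FPKM, which is scaled for transcript length. Of the 10136 plus-strand genes tested, 36.8% passed, 16.5% with a rise and 20.4% with a fall. The share of these genes that rose was thus above the share of all plus-strand genes, and the share that fell was below it. No test was made of this difference. Among 1558 plus-strand genes with a mean of at least 7 on the log2 CPM scale, where 17 of the 18 lie, 37.2% passed, 19.8% with a rise and 17.5% with a fall.

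The median log2 fold change of the 18 genes was 0.16, against 0.00 for all plus-strand genes tested, and 15 of the 18 values were positive. All 3 mutant libraries lay above all 3 wild type libraries for 8 genes and below them for 3, while the groups overlapped for 7. Over all plus-strand genes tested 50.6% did not overlap, 24.6% with the mutant above and 26.0% with it below. The median moved with single wild type libraries: it was 0.10 without wild type replicate 0 and 0.22 without wild type replicate 1. Summed over the 18 genes, the mutant libraries held 36939.6, 37812 and 38749 CPM, and the wild type libraries 33552, 35498 and 37032. The highest wild type library was thus above the lowest mutant library. In whole seedlings, a different number of green cells and a different amount of these transcripts per cell cannot be told apart.

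**Figure D2:**
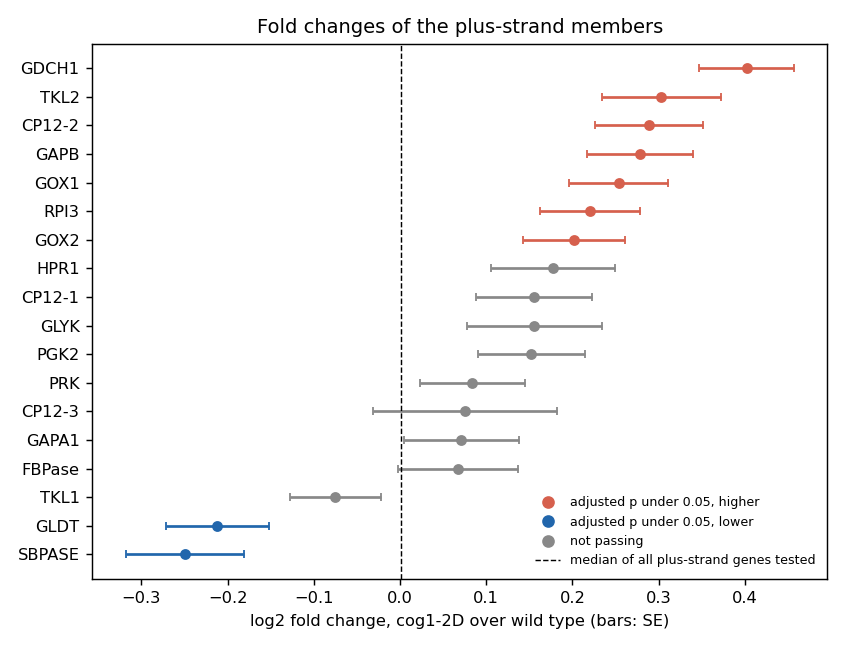
Log2 fold change of cog1-2D over wt with its standard error (edgeR, 3 libraries per genotype) for the 18 plus-strand genes, ordered by value, with the median of all plus-strand genes tested as a dashed line. Values run from 0.40 for GDCH1 to -0.25 for SBPASE, with 7 genes that rose and 2 that fell, of which GLDT fell in fragments and not in FPKM.

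COG1 belongs to the Dof family, whose proteins bind DNA at a core of the letters AAAG. The bases before the annotated start are therefore shown for SBPASE and GLDT, which fell in fragments, and for GOX1 and GOX2, which rose. GOX1 and GOX2 are the only genes that rose whose window holds no part of another protein-coding gene. The windows of GDCH1, TKL2, CP12-2, GAPB and RPI3 hold 44 to 223 bases of one and are not shown. Each window is 250 bases long, ends at the base before the start of the gene, and is read 5′ to 3′ on the plus strand from the RefSeq genome, build TAIR10.1. It spans chr3:20709044-20709293 for SBPASE, chr1:4000863-4001112 for GLDT, chr3:4821141-4821390 for GOX1 and chr3:4818001-4818250 for GOX2. Capitals mark AAAG, or CTTT where the core is on the other strand.
SBPASE: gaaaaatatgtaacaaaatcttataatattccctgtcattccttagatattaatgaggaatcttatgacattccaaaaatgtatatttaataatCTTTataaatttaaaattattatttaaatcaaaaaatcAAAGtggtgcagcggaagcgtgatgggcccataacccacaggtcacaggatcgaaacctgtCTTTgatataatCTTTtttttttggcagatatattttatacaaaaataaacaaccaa
GLDT: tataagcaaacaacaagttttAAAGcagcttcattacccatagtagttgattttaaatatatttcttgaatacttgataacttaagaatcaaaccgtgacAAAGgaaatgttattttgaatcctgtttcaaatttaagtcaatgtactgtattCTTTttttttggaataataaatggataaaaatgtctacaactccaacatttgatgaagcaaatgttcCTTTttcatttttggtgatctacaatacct
GOX1: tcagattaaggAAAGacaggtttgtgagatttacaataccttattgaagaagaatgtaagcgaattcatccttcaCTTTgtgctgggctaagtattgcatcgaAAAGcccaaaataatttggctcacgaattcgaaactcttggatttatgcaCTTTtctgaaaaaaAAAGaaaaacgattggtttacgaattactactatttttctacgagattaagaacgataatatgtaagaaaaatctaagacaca
GOX2: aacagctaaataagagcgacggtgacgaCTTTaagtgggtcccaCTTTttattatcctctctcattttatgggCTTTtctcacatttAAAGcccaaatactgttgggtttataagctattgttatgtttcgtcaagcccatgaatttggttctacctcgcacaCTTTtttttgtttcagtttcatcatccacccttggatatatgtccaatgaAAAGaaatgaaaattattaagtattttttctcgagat
Part of the SBPASE window, 72 bases, is annotated as a tRNA gene.

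The core AAAG, searched on both strands with overlapping matches counted, occurred 4 times before SBPASE, 4 times before GLDT, 5 times before GOX1 and 6 times before GOX2. The other genes that rose held 1 match (CP12-2), 3 (GDCH1), 4 (TKL2 and RPI3) and 5 (GAPB). Over all 18 plus-strand genes every window held it, with 1 to 6 matches and a median of 4. Such a short word is common: 98.0% of 27443 windows of the same length before nuclear protein-coding genes held it, also with a median of 4. The G-box CACGTG, which reads the same on both strands, stood before FBPase, TKL2 and PRK, 3 of 18 genes, and in 6.49% of all windows. The I-box core GATAAG, on either strand, stood before FBPase, CP12-2 and CP12-3, 3 of 18, and in 12.3% of all windows. A match is a description of the letters and not of binding.

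The first step of the cycle could not be compared. RBCS1A, RBCS1B, RBCS2B and RBCS3B, the small-subunit genes of Rubisco, and RCA, the activase that frees its active sites of inhibitory sugar phosphates, all lie on the minus strand. RBCS1A had 391, 464 and 458 residual fragments in mutant replicates 0, 1 and 2, and 555, 94 and 570 in the wild type replicates in the same order. RBCS1B had 29, 24 and 18 against 48, 4 and 49. RCA had 215, 214 and 215 against 246, 47 and 241. For each of them wild type replicate 1 was several times lower than the other 2 wild type libraries.

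RBCS2B and RBCS3B were listed as higher in cog1-2D in the authors' deposited table, at 0.65 (q = 0.000662) and 0.43 (q = 0.0271) on the log2 scale. RBCS2B had 129, 132 and 134 residual fragments in the mutant and 120, 22 and 120 in the wild type. RBCS3B had 117, 155 and 130 against 136, 23 and 154. The single low wild type library is again replicate 1. By edgeR's quasi-likelihood test the log2 fold changes were 0.62 (adjusted p = 0.271) for RBCS2B and 0.39 (adjusted p = 0.541) for RBCS3B. Without wild type replicate 1 they were 0.18 (adjusted p = 0.274) and -0.07 (adjusted p = 0.764) by the same test. In that setting RBCS1A was at -0.32 (adjusted p = 0.0358) and RBCS1B at -0.99 (adjusted p = 0.0162). Of the 18 minus-strand genes, 16 passed the filter on low counts and 0 passed the edgeR test with all libraries, with 0 also at an unadjusted p under 0.05 and 0 with DESeq2. Without that filter RBCS2B passed, at 0.60 (edgeR, adjusted p = 0.0365). Over all 10347 genes tested, 36.3% passed. Of the 10347, however, 10136 lie on the plus strand, and these include 3731 of the 3752 that passed. The share is thus not one for minus-strand genes. FBA3 and PGLP1B were not tested. What residual fragments of a minus-strand gene measure was not tested.

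In the reduction steps, GAPB rose while its partner GAPA1 did not pass the test. The products of GAPA1 and GAPB form the chloroplast glyceraldehyde phosphate dehydrogenase, which uses NADPH to reduce the product of phosphoglycerate kinase. GAPB had 5635, 5913 and 5711 CPM in mutant replicates 0, 1 and 2 and 4464, 4908 and 4854 CPM in the wild type, with no overlap. Its log2 fold change was 0.28 ± 0.06 (SE; edgeR's quasi-likelihood test, adjusted p = 0.00722). GAPA1 had 5786, 5696 and 5338 CPM against 5071, 5677 and 5261 CPM. These groups overlapped, and its log2 fold change was 0.07 ± 0.07 (edgeR, adjusted p = 0.435).

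PGK2 encodes a phosphoglycerate kinase of the chloroplast, which phosphorylates the product of Rubisco. It had 615, 653 and 646 CPM in the mutant and 532, 608 and 582 CPM in the wild type. Each mutant library was above each wild type library, but by a small margin. The log2 fold change of 0.15 ± 0.06 did not pass (edgeR, adjusted p = 0.0867). PGK1, the other phosphoglycerate kinase listed, and GAPA2, a second A subunit, lie on the minus strand with 210 and 440 residual fragments over all libraries.

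In the regeneration of ribulose bisphosphate, SBPASE fell and TKL2 and RPI3 rose. SBPASE encodes sedoheptulose bisphosphatase, an enzyme that acts in the cycle and has no counterpart in glycolysis. Its values were 2173, 2218 and 2069.8 CPM in the mutant and 2375, 2760.0 and 2548 CPM in the wild type, and every mutant library was below every wild type library. The log2 fold change was -0.25 ± 0.07 (edgeR's quasi-likelihood test, adjusted p = 0.0198). This call is close to the threshold: leaving out any 1 of the 6 libraries other than wild type replicate 0 ended it, with edgeR adjusted p from 0.0535 to 0.0755.

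TKL1 and TKL2 encode transketolases, which move carbon pairs between sugar phosphates. TKL2 had 151, 159 and 161 CPM in the mutant and 139, 117 and 124 CPM in the wild type. The groups did not overlap, and the log2 fold change was 0.30 ± 0.07 (edgeR, adjusted p = 0.00822). TKL1, much the more abundant of the pair, had 3578 ± 18.5 CPM in the mutant and 3768 ± 75.4 CPM in the wild type (SD, n = 3). Its mutant libraries, 3556 to 3589 CPM, all lay below its wild type libraries, 3681 to 3812 CPM, yet the log2 fold change of -0.07 ± 0.05 did not pass (edgeR, adjusted p = 0.302).

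RPI3, a ribose phosphate isomerase, had 676, 695 and 678 CPM in the mutant and 559, 628 and 572 CPM in the wild type. All mutant libraries were higher, by a log2 fold change of 0.22 ± 0.06 (edgeR, adjusted p = 0.0170). The call was lost without mutant replicate 1 (edgeR, adjusted p = 0.0753) and without wild type replicate 2 (edgeR, adjusted p = 0.0622). A minus-strand long noncoding RNA overlaps the locus by 235 bases. That RNA had 0 fragments over the 6 libraries, in which minus-strand genes held residual fragments only.

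PRK, the phosphoribulokinase that makes the acceptor of CO2, had 3514, 3618 and 3422 CPM in the mutant and 3143, 3488 and 3325 CPM in the wild type. The groups overlapped, and the log2 fold change was 0.08 ± 0.06 (edgeR, adjusted p = 0.313). FBPase, the fructose bisphosphatase of the chloroplast, lay between 1507 and 1559 CPM in the mutant and between 1315 and 1558 CPM in the wild type, also with overlap (log2 fold change 0.07 ± 0.07; edgeR, adjusted p = 0.486). The triose phosphate isomerase TPI, the aldolases FBA1, FBA2 and FBA3 and the ribulose phosphate epimerase RPE lie on the minus strand, with 16 to 383 residual fragments.

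CP12 is a small redox-controlled protein that binds glyceraldehyde phosphate dehydrogenase and phosphoribulokinase in the dark and holds them inactive. All of its 3 genes lie on the plus strand. CP12-2 rose, with 498, 504 and 445 CPM in the mutant and 397, 408 and 379 CPM in the wild type. No mutant library was as low as any wild type library, and the log2 fold change was 0.29 ± 0.06 (edgeR's quasi-likelihood test, adjusted p = 0.00673).

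CP12-1 had 1006, 1054 and 1085 CPM in the mutant and 868, 1013 and 943 CPM in the wild type. Wild type replicate 1 was above the lowest mutant library, and the log2 fold change of 0.16 ± 0.07 did not pass (edgeR, adjusted p = 0.104). CP12-3 was the least abundant of the plus-strand genes, with 21.1, 21.6 and 20.4 CPM against 17.1, 22.6 and 20.2 CPM. The wild type libraries spanned those of the mutant (log2 fold change 0.08 ± 0.11; edgeR, adjusted p = 0.619).

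In photorespiration, 3 of the 6 plus-strand genes rose, 1 fell and 2 did not pass, where 16.5% of all plus-strand genes tested rose and 20.4% fell. The strongest rise of all 18 genes was that of GDCH1, which encodes an H protein of the mitochondrial glycine decarboxylase, the carrier of the lipoyl arm that moves between the other subunits. It had 1079, 1110.3 and 1066 CPM in the mutant and 796, 803 and 864 CPM in the wild type. Every mutant library was well above every wild type library, and the log2 fold change was 0.40 ± 0.06 (edgeR's quasi-likelihood test, adjusted p = 0.000519).

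GLDT encodes the T protein of the same complex, the aminomethyltransferase that passes the remaining carbon to tetrahydrofolate. It had 2540.4, 2558 and 2453 CPM in the mutant and 2751, 3053 and 2943 CPM in the wild type. Here all mutant libraries were lower, by a log2 fold change of -0.21 ± 0.06 (edgeR, adjusted p = 0.0226). As for SBPASE, leaving out any library other than wild type replicate 0 ended the call, with edgeR adjusted p from 0.0600 to 0.0812. The 2 listed genes of the P protein, GLDP1 and GLDP2, and SHM1, the serine hydroxymethyltransferase that works beside the complex, lie on the minus strand with 266, 76 and 258 residual fragments.

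The fall of GLDT was present in its fragments and not in its FPKM, the deposited value scaled by transcript length and library. The deposited FPKM values were 1811, 1827 and 1757 in the mutant and 1713, 1938 and 1844 in the wild type, which overlap. On log2(FPKM + 1) its difference was -0.02 (limma, adjusted p = 0.798). Each fragment of GLDT was worth more FPKM in the mutant: relative to the median gene of the same library, FPKM per fragment was 1.19 ± 0.00072 in cog1-2D and 1.05 ± 0.00222 in wt (SD, n = 3). Of 1939 genes with at least 1000 fragments in every library, 4 had a shift of that size or more, GLDT among them. The reference annotates 3 mRNA models for GLDT, and the cause of the shift was not tested. For the 16 others of the 18 genes with that many fragments, the shift was at most 0.03 in size on the log2 scale.

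GOX1 and GOX2 are neighbouring genes for glycolate oxidase, the peroxisomal enzyme that turns glycolate into glyoxylate and releases hydrogen peroxide. GOX1 had 4310.3, 4534 and 4195 CPM in the mutant and 3572, 3718 and 3648 CPM in the wild type, with a log2 fold change of 0.25 ± 0.06 (edgeR, adjusted p = 0.00810). GOX2 had 1957, 2049.9 and 2014 CPM against 1651, 1837 and 1746 CPM, with a log2 fold change of 0.20 ± 0.06 (edgeR, adjusted p = 0.0263). Neither gene had an overlap between the genotypes. Of the 50-base words of their longest transcripts, 1.19% in GOX1 and 1.17% in GOX2 are shared exactly with the other. How many reads fit both genes was not tested.

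The call of GOX2 was lost without mutant replicate 1 (edgeR, adjusted p = 0.110), without mutant replicate 2 (edgeR, adjusted p = 0.0720) and without wild type replicate 2 (edgeR, adjusted p = 0.0729). That of GOX1 was lost without mutant replicate 1 (edgeR, adjusted p = 0.0543). HPR1, the peroxisomal hydroxypyruvate reductase, had 2159, 2187 and 1977 CPM in the mutant and 1739, 2023 and 1829.9 CPM in the wild type. Wild type replicate 1 was above the lowest mutant library, and the log2 fold change was 0.18 ± 0.07 (edgeR, adjusted p = 0.0863). GLYK, the glycerate kinase that closes the pathway, lay between 593 and 629.6 CPM in the mutant and between 483 and 599 CPM in the wild type, with a log2 fold change of 0.16 ± 0.08 (edgeR, adjusted p = 0.153). The phosphoglycolate phosphatase PGLP1B and the peroxisomal aminotransferases GGT1 and AGT1 lie on the minus strand, with 2, 378 and 151 residual fragments.

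**Figure D3:**
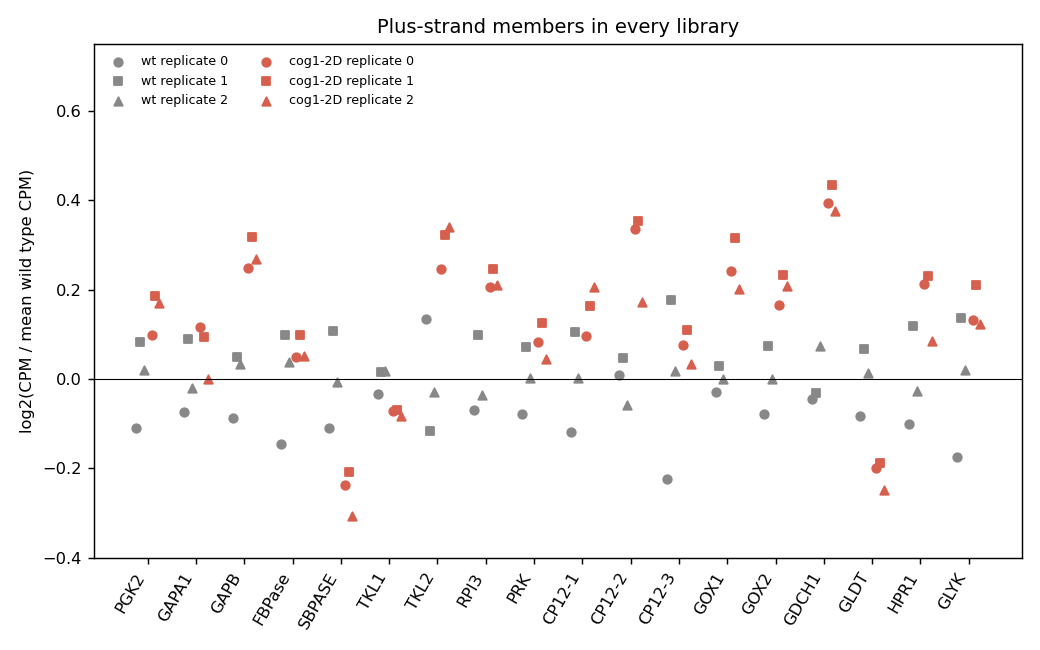
CPM of each of the 18 plus-strand genes in each of the 6 libraries, as log2 of its ratio to the mean of the 3 wild type libraries, with 0 marking no difference. The mutant libraries lie apart from the wild type for 11 genes, above it for 8 and below it for 3 (SBPASE, TKL1 and GLDT).

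Fragment ratios between pairs of genes within a library do not depend on the scaling of libraries, and 6 such ratios were formed after the values had been seen. The ratio of GDCH1 to GLDT was 0.425, 0.434 and 0.435 in the mutant and 0.289, 0.263 and 0.294 in the wild type. The mutant ratio was 1.53 times that of the wild type, with no overlap. In CPM every mutant library was above the wild type for GDCH1 and below it for GLDT, so this ratio could not overlap. With FPKM in place of fragments the log2 difference of this ratio was 0.44 in place of 0.61.

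The ratio of GAPB to GAPA1 was 1.03 ± 0.0489 in the mutant and 0.889 ± 0.0300 in the wild type (SD, n = 3). For SBPASE to FBPase, both bisphosphatases of the cycle, it was 1.41 ± 0.0363 against 1.76 ± 0.0507. For TKL2 to TKL1 it was 0.0438 ± 0.00164 against 0.0337 ± 0.00369. These 3 ratios also differed without overlap. For TKL2 to TKL1 this was fixed in advance, since TKL2 lay above the wild type and TKL1 below it in every mutant library. The ratios of GOX1 to GOX2 (2.17 ± 0.0717 against 2.09 ± 0.0697) and of CP12-2 to CP12-1 (0.461 ± 0.0449 against 0.421 ± 0.0323) overlapped between the genotypes. For each of the 4 ratios without overlap the two-sided exact permutation test gave p = 0.10, the smallest value that 3 against 3 libraries allow, and 0.15 after Benjamini-Hochberg adjustment over the 6 ratios. The design could not reach 0.05 here. For GDCH1 to GLDT and TKL2 to TKL1 the permutation result followed from the separate genes and adds nothing to them. For GOX1 to GOX2 the exact permutation p was 0.30 and for CP12-2 to CP12-1 it was 0.20.

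**Figure D4:**
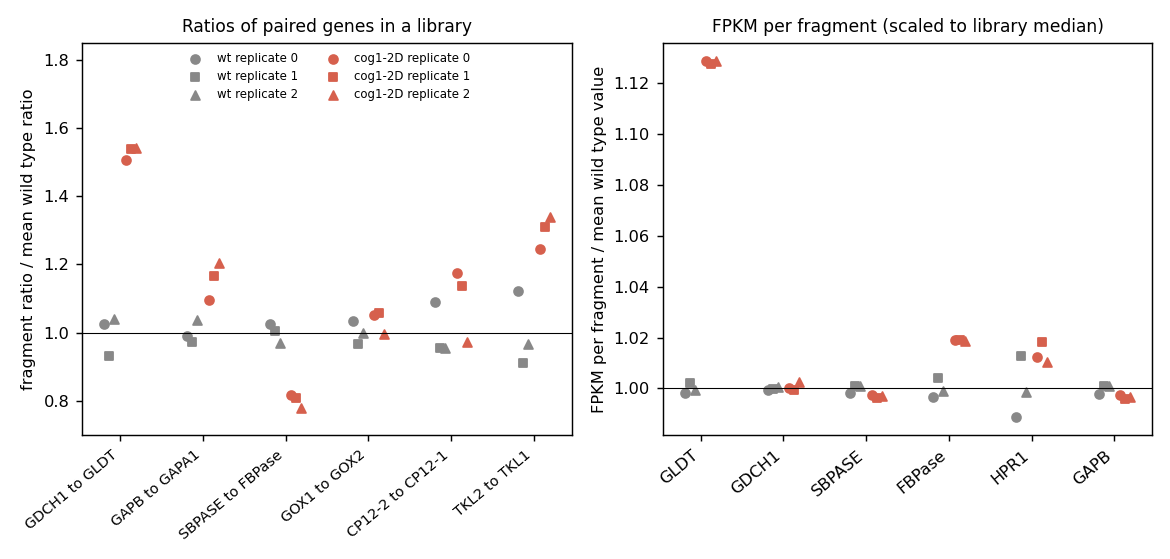
Left, fragment ratio of 6 gene pairs in each of the 6 libraries, and right, FPKM per fragment of 6 genes, each divided by its mean over the 3 wild type libraries. The GDCH1 to GLDT ratio is 1.53 times the wild type in the mutant and the SBPASE to FBPase ratio 0.802 times, while GOX1 to GOX2 and CP12-2 to CP12-1 overlap; of the 6 genes on the right, GLDT stands farthest from 1.

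By length-corrected level the 18 plus-strand genes spanned a wide range. In mean FPKM over the 6 libraries the order was GAPA1 (3472), GAPB (3125), GOX1 (2742), PRK (1992), GLDT (1815), SBPASE (1501), CP12-1 (1381), HPR1 (1350.0), TKL1 (1322), GDCH1 (1268), GOX2 (1257), FBPase (1214), CP12-2 (999), RPI3 (792), GLYK (374), PGK2 (349), TKL2 (51.0) and CP12-3 (35.6). The ranges of neighbours over the 6 libraries were separate between GOX1 and PRK, RPI3 and GLYK, PGK2 and TKL2, and TKL2 and CP12-3, and overlapped between all other neighbours. Within each of the 6 libraries the order also held for GAPB over GOX1, PRK over GLDT, GLDT over SBPASE, FBPase over CP12-2, CP12-2 over RPI3 and GLYK over PGK2.

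Under the other 17 settings of the comparison, 3 of the 9 calls were never lost: the rises of GDCH1, TKL2 and CP12-2. The authors' deposited table lists the same 3 plus-strand genes and none of the other 15, with log2 fold changes of 0.41 (q = 0.00205), 0.31 (q = 0.0139) and 0.31 (q = 0.0165). That table holds 9.29% of all 33617 genes, a total that includes the minus-strand genes with their few fragments. Its share among plus-strand genes was not computed. The rise of GAPB was lost in 1 setting, limma on FPKM without a filter (adjusted p = 0.152).

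Related genes outside the 36 moved in both directions, as did plus-strand genes at large, of which 16.5% rose and 20.4% fell. Of 6 tested plus-strand genes of other photorespiratory enzymes and transport, AGT3, an aminotransferase, rose by 0.28 and GGT2, a glutamate:glyoxylate aminotransferase, fell by 0.20 on the log2 scale. Of 9 for Rubisco assembly and regulation of the cycle, BSD2, a Rubisco assembly chaperone, rose by 0.23, CFBP2, a second chloroplast fructose bisphosphatase, rose by 0.69, and CPN60B2, a chaperonin subunit, fell by 0.32. CFBP2 was a minor transcript, with 71.3 ± 1.98 CPM in the mutant and 44.1 ± 3.82 CPM in the wild type (SD, n = 3). Of 6 cytosolic counterparts, 1 passed: GAPC1, a glycolytic glyceraldehyde phosphate dehydrogenase, fell by 0.17.

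Photosystem and antenna genes had a similar median. Of 16 plus-strand genes of that list, 4 rose, 1 fell and 11 did not pass (edgeR), and the median log2 fold change was 0.15. Among all plus-strand genes tested, 16.5% rose and 20.4% fell. PSAH2 rose by 0.38, PSAE2 by 0.33, PSAK by 0.29 and PSBQ1 by 0.24, while LHCB4.2, a minor antenna protein, fell by 0.59. Their summed CPM was lowest in wild type replicate 0, at 93861, and 112257 to 117169 in the other 5 libraries.

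Markers of root tissue, which whole seedlings contain, moved with the genotype. Of 17 listed root markers 10 were tested on the plus strand, and 7 of these fell, among them HKT1 (-1.47), EXPA7 (-1.01), PHT1;4 (-1.01) and PRP3 (-0.93), and TIP4;1 rose (0.77; edgeR log2 fold changes). NRT2.1 and SHR did not pass. The share that fell among all plus-strand genes tested was 20.4%. Summed over the 10 markers, the mutant libraries held 273 to 291 CPM and the wild type libraries 337 to 387 CPM, and none of the 10 was at 0. Their part in the values of the Calvin cycle and photorespiration genes was not tested.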

How the data were processed

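Messenger RNA of whole seedlings was sequenced in 6 libraries, 3 per genotype, from TruSeq Stranded mRNA libraries, per the labels' protocols. The submitters' processing notes name Trimmomatic 0.36, HISAT2 2.1.0, Cufflinks 2.2.1, Cuffdiff and the build TAIR10, with roles and strand setting not given in the sources used here. The deposited gene table holds expected counts of fragments, unscaled, per the file headers, of which 98.1% were whole within 1e-06. It also holds FPKM, scaled by the authors for length and library, per the file headers. The authors' deposited list of called genes gives the log2 fold change and the q-value of each.

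Of 33617 loci, 32225 matched the TAIR10.1 reference, which gave strand and windows. Expected counts were rounded and tested with edgeR 4.0.16 (R 4.3.3; filterByExpr, TMM, quasi-likelihood test, genotype as the only term, Benjamini-Hochberg threshold 0.05), since Cuffdiff could not be rerun. CPM is the edgeR value with TMM factors. FPKM was tested as log2(FPKM + 1) with limma 3.58.1 where the mean was at least 0.5. Other settings were DESeq2 1.42.0, other scaling factors, filters and pseudocounts, leaving out each library, and a replicate block. In simulated counts for this comparison with 10229 genes tested, edgeR called 42 of 100 genes with a true log2 change of 0.3, 100 of 100 with a change of 1, and 23 unchanged genes. The changed genes were drawn from those with a mean count of at least 1000. The 23 false calls are a larger share of the calls than the 0.05 that the threshold aims at. Exact permutation tests used scipy 1.17.1.

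The genes and lists were chosen with earlier results of these data known. All 36 genes are named; library values are given for called genes, duplicate families and the 4 most abundant uncalled genes. From each related list up to 4 called genes with the largest change are named; PSBQ1 and TIP4;1 are named beyond this rule, after their values were seen. All 6 ratios, with TKL1 and FBPase among their genes, were chosen after the values were seen.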

Additional observations from a re-analysis of the deposited data

How the results depend on the processing

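The count of Calvin cycle and photorespiration genes that rose, 7 with edgeR, was 3 with limma on log2(FPKM + 1) without a filter, and 4 to 10 when 1 library was left out. The 4 came without mutant replicate 1 and the 10 without wild type replicate 1, where CP12-1, GLYK and HPR1 also passed. The count that fell, 2, was 1 with limma on log2(FPKM + 1), 1 with log2(FPKM + 0.1), 0 without a filter on FPKM, and 0 to 2 when 1 library was left out. Without wild type replicate 1 the 2 were the minus-strand genes RBCS1A and RBCS1B. The median log2 fold change, 0.16, ranged from 0.10 to 0.22 when 1 library was left out. FBPase ranged from -0.0042 to 0.1205 and CP12-3 from -0.0303 to 0.174. Neither was called, and both were negative without wild type replicate 0 alone. Of 99 values of called genes in 11 settings with every library, 91 kept their call and 8 lost it, of which 6 came from FPKM without a filter. Of 54 with 1 library left out, 38 kept it and 16 lost it, and no called value changed sign. The causes were not tested. Over all genes, 1129 to 1896 rose and 1554 to 2303 fell in the settings tried. With the replicate number as a block, 10 genes rose and 2 fell; PGK2, HPR1 and CP12-1 were added. Deviations of same-numbered libraries correlated by 0.00639, -0.0160 and 0.130, and only mutant replicate 2 correlated best with its own number, so the numbers were not taken as pairs. In simulated counts 42 of 100 changes of 0.3 were called, so changes of that size can be missed. Only 100 genes of each size were changed there, while 36.3% of genes passed in the data. The 42 is thus no rate for these data, and genes with a mean count under 1000 were not among those changed. The minus-strand genes held residual fragments only and could not be compared.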
